A study of Mus musculus with 3 samples.

Results

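RNA of mouse dendritic cells cultured with YB328, a gut bacterial strain, was compared gene by gene with RNA of untreated dendritic cells. These are 2 of the 3 libraries of the series, and the comparison was chosen by treatment label, over all genes. All cells were wild-type bone marrow derived dendritic cells (BMDCs). The third library, of BMDCs cultured with P. vulgatus, another gut bacterium, is set beside the others as a value only, because both treated libraries would be held against the same untreated library. The sources used here do not give mouse strain, age, type of marrow culture, dose or time of exposure, nor whether the bacteria were alive. With 1 library a condition, every difference lacks a replicate check, and no p-value is given. Without molecular identifiers, PCR reads cannot stand for independent molecules, so the 95% intervals below cover counting error only.

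Dendritic cells take up microbes, cut them into peptides and carry those peptides to lymph nodes, where they present them to T cells. On meeting bacterial products they change shape, stop taking up material, send vesicles and membrane proteins to the cell surface, and secrete proteins that act on the surrounding tissue. Their interferon and cytokine genes are the usual readout of that change. The genes described here are those of other classes: extracellular proteases and matrix, membrane traffic, lipids, signalling enzymes, carriers, ubiquitin ligases, chromatin, RNA processing and noncoding genes.

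Levels are given in CPM, counts relative to the library total after TMM scaling between libraries, a unit that is not corrected for gene length and is compared only within a gene. A gene is said to have risen or fallen when it had at least 5 CPM in a library, its log2 ratio of YB328 to untreated was at least 1 in size after adding 0.5 CPM to both, and the 95% interval of the count ratio excluded 1. Of 55487 genes, 10699 reached 5 CPM in a library. Of these 2647 (24.7%) rose, 1955 (18.3%) fell and 6097 did neither, and the median log2 ratio was 0.17. Outside the usual interferon, cytokine and related lists, 2289 genes rose and 1728 fell. The deposited TPM values, which share out each library over genes per length, moved the split: 57.5% of calls were increases by CPM and 75.8% by TPM, with a median log2 ratio of 0.61. Class medians below are on the CPM scale, to be read against 0.17, and where a class count is followed by a range, the range is over the 7 scalings tried, TPM among them. Over the same scalings the share of all genes that rose was 21.3% to 36.5%, lowest with TMM from expressed genes and highest with TPM, and the share that fell was 11.6% to 21.3%.

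**Figure D1:**
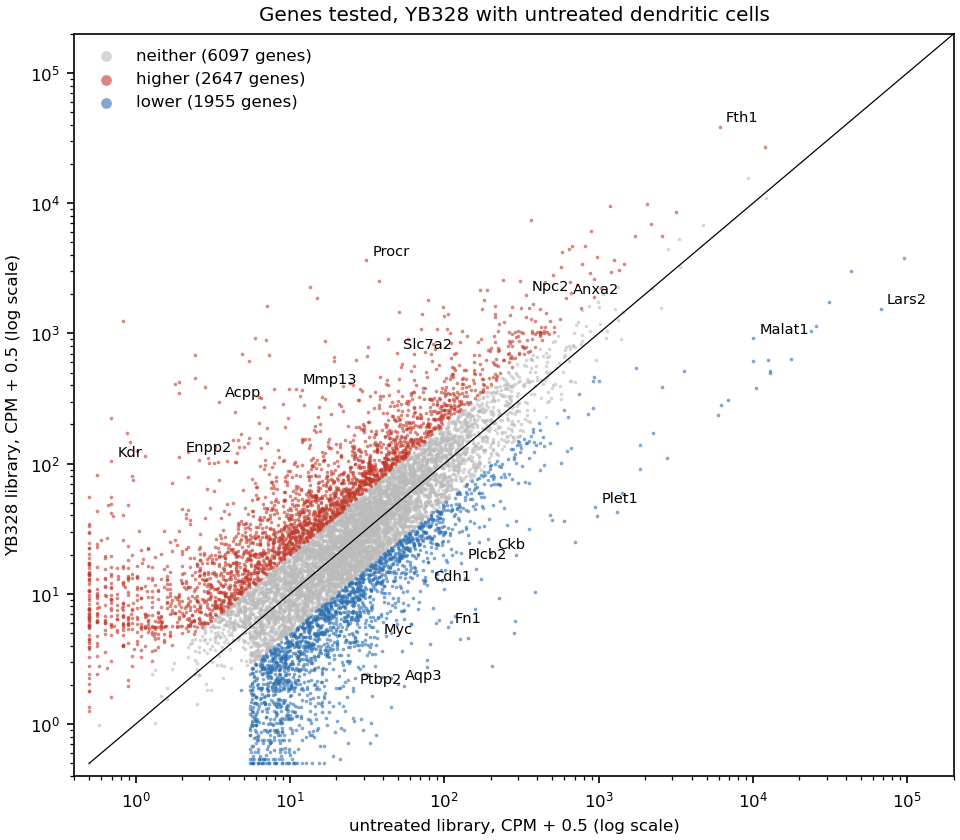
Each point is 1 of the 10699 genes tested, with CPM + 0.5 in the untreated library (x, log axis) against CPM + 0.5 with YB328 (y, log axis); colours mark genes that rose, fell or did neither by the rule of size. The rises and falls spread over the whole range of levels, and Procr, at 30.7 CPM untreated and 3639 CPM with YB328, lies far above the diagonal.

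The libraries held 15538133 counts untreated, 26660870 with P. vulgatus and 26924006 with YB328. The share of counts on nuclear protein-coding genes, Lars2 left out, was 57.9% untreated and 96.6% with YB328. Ribosomal RNA genes took 9.54% and 0.386%, and genes of the mitochondrial genome 17.3% and 0.899%. All 10 dendritic cell markers examined were expressed, of which 2 rose and 1 fell. Their summed level was 8639 CPM untreated and 15609 CPM with YB328. The markers that rose were Ccr7, from 672 to 4679 CPM, and Fscn1, from 418 to 1529 CPM. Itgax, which encodes CD11c, fell from 272 to 75.5 CPM. The rest did not pass, among them Cd74 at 4726 and 6825 CPM, Batf3 at 109 and 120 CPM and Flt3 at 23.2 and 18.6 CPM. The 8 tested macrophage markers, of which 2 rose and 0 fell, summed to 439 and 972 CPM, and the endothelial markers to 9.42 and 129.7 CPM. Neutrophil markers went the other way, with all 6 tested lower and sums of 4392 and 294 CPM, as did stromal markers, of which 4 of 6 tested were lower and sums were 556 and 45.2 CPM. No B cell or T and NK cell marker reached 5 CPM. In bulk RNA fewer cells of a type and less RNA per cell cannot be told apart, and the part of these shifts in the results below was not tested.

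Genes of proteolysis and coagulation outside the cell gave some of the largest differences. Procr (ENSMUSG00000027611.12), the endothelial protein C receptor, which binds protein C on cell surfaces, measured 30.7 CPM untreated, 3639 CPM with YB328 and 4611 CPM with P. vulgatus. It was 119-fold (95% interval 108 to 130.2) higher with YB328. Both treated libraries were far above the untreated library. Serpinb2, plasminogen activator inhibitor 2, measured 3.87 CPM untreated, 247 CPM with YB328 and 157 CPM with P. vulgatus, a rise of 63.9-fold (95% interval 49.6 to 83.8). Plat, tissue plasminogen activator, the enzyme that Serpinb2 restrains, had 3 counts untreated. Its levels were 0.194 CPM untreated, 55 CPM with YB328 and 138 CPM with P. vulgatus, a rise of 284-fold (95% interval 97 to 1378), with the width of the interval set by those 3 counts. Thus both the activator and an inhibitor of plasminogen activation were higher with YB328, the activator less so than with P. vulgatus and the inhibitor more so.

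The collagenase Mmp13 measured 10.5 CPM untreated, 376 CPM with YB328 and 156 CPM with P. vulgatus, which is 35.8-fold (95% interval 30.6 to 42) higher with YB328. The membrane-bound protease Mmp14 rose 2.89-fold (95% interval 2.74 to 3.05), from 107 to 309.5 CPM. Timp1, an inhibitor of these proteases, rose from 14.1 to 195 CPM and stood at 845 CPM with P. vulgatus. Its reads may include some of Syn1, which overlaps it on the opposite strand. The gelatinases went down instead. Mmp2 measured 41.6 CPM untreated, 4.22 CPM with YB328 and 3.14 CPM with P. vulgatus, 9.85-fold (95% interval 8.07 to 12.1) lower with YB328, and Mmp9 measured 38.9 CPM untreated, 14.8 CPM with YB328 and 33.8 CPM with P. vulgatus, 2.63-fold (95% interval 2.31 to 2.99) lower. Mmp12, the macrophage elastase, did not pass in either direction at 3297 and 5327 CPM. In all, 6 of 14 tested metalloproteinase and TIMP genes rose and 4 fell, with a class median of 0.83.

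Among 36 tested serpins and cystatins 14 rose and 8 fell, and their median of -0.09 lay below that of all genes, as did the TPM median of 0.32 below its own. The class thus held large changes in both directions. Slpi, a secreted inhibitor of leukocyte elastase, measured 57.4 CPM untreated, 912 CPM with YB328 and 2411 CPM with P. vulgatus, a rise of 15.9-fold (95% interval 14.9 to 17). Serpinb9b rose from 10.3 to 102 CPM, and the Serpinb genes of chromosome 13 formed a run of 5 neighbouring genes that all rose. The stefin gene Cstdc5, of a family of cysteine protease inhibitors, measured 116 CPM untreated, 6.22 CPM with YB328 and 12.6 CPM with P. vulgatus and was 18.6-fold (95% interval 15.9 to 21.9) lower with YB328. Stefin genes are near-identical copies, so their counts are uncertain one by one.

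The promoters of some of these genes are shown because they hold the AP-1 motif TGANTCA, bound by Fos and Jun proteins, which many secreted proteases carry close to their start. Each is the 250 bases before the RefSeq start of transcription on build GRCm38.p6, read 5′ to 3′ on the strand of the gene, with the motif in capitals. Emp1, an epithelial membrane protein that measured 2.71 CPM untreated, 100.8 CPM with YB328 and 70.7 CPM with P. vulgatus, and Plet1, a surface protein that fell, are shown beside them; Emp1 was picked after its values were seen.
Procr, chr2:155750967-155751216, plus strand: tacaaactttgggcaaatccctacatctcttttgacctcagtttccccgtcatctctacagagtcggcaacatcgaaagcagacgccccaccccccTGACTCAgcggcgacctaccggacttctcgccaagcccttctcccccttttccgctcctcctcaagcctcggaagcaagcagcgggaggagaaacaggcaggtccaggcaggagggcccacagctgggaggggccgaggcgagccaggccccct
Serpinb2, chr1:107511173-107511422, plus strand: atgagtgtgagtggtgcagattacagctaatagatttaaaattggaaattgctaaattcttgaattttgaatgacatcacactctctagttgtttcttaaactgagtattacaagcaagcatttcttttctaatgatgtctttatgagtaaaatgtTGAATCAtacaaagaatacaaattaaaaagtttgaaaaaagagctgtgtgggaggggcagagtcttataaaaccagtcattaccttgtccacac
Mmp13, chr9:7272264-7272513, plus strand: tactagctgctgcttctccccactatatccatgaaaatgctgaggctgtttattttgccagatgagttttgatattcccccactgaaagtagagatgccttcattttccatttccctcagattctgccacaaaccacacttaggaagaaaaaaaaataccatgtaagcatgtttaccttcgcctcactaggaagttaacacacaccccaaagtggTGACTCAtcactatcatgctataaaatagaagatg
Emp1, chr6:135362681-135362930, plus strand: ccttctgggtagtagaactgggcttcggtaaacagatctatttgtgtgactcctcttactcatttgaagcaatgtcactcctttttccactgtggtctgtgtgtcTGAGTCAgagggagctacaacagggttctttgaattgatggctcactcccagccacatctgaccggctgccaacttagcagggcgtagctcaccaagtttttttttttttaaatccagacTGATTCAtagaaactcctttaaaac
Plet1, chr9:50494275-50494524, plus strand: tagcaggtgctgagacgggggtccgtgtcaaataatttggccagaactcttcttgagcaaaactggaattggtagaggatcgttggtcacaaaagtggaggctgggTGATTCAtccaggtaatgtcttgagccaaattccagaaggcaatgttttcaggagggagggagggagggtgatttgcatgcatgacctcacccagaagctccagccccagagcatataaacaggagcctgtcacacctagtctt
The first base of the motif lay 154 bases before the start in Procr, 94 in Serpinb2, 35 in Mmp13, 145 and 25 in Emp1, and 144 in Plet1. Letters were searched on both strands over the same window of all genes, and the motif stood in 6.75% of all 32851 RefSeq promoters. It stood in 5.29% of promoters of genes that rose, 4.05% of those that did neither and 3.60% of those that fell. Among promoters of the 100 genes with the largest rises outside the usual lists, 7 of 81 held it (8.64%), and among those of the 100 with the largest falls, 6 of 72 (8.33%). The motif is therefore about as frequent on both sides at the extremes. A match is only a description of the letters in this window.

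Further secreted and extracellular enzymes and a peptide hormone rose. Acpp, prostatic acid phosphatase, an enzyme that also removes phosphate from extracellular AMP, measured 2.97 CPM untreated, 299 CPM with YB328 and 342 CPM with P. vulgatus, a rise of 100.8-fold (95% interval 75.5 to 138). Enpp2, autotaxin, which makes lysophosphatidic acid outside the cell, measured 1.42 CPM untreated, 113 CPM with YB328 and 257 CPM with P. vulgatus, a rise of 79.5-fold (95% interval 52.4 to 127). Hamp, hepcidin, the peptide hormone that closes the iron exporter, measured 0.452 CPM untreated, 79.8 CPM with YB328 and 112 CPM with P. vulgatus, a rise of 177-fold (95% interval 85.6 to 439.9). Each of these was below 3 CPM untreated and higher in both treated libraries. Tgm2, a transglutaminase that crosslinks matrix proteins, rose from 11.1 to 331 CPM; it shares bases with Rprd1b on the chromosome, which measured 11 and 18.4 CPM.

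Matrix and proteoglycan genes went both ways. Sdc1, a heparan sulphate proteoglycan of the cell surface, measured 11.4 CPM untreated, 366 CPM with YB328 and 626 CPM with P. vulgatus, a rise of 32.1-fold (95% interval 27.6 to 37.4). Of others of this kind Sdc4 rose 12.3-fold (95% interval 10.7 to 14.1), Sdc3 6.25-fold (95% interval 5.86 to 6.67) and Gpc1 8.6-fold (95% interval 8.05 to 9.2), and Srgn, the proteoglycan core of secretory granules, went from 188 to 2137 CPM. Sdc3, Gpc1 and Srgn were picked after their values were seen. Fn1, fibronectin, measured 106 CPM untreated, 5.1 CPM with YB328 and 7.95 CPM with P. vulgatus and was 20.7-fold (95% interval 17.4 to 24.8) lower with YB328, beside the stromal collagen Col1a1, which went from 204 to 2.27 CPM. Other stromal matrix genes were split. Col1a2 fell from 281 to 4.55 CPM, Col3a1 from 17.1 to 3.01 CPM and Sparc from 41.5 to 6.02 CPM. Lum instead rose from 2.0 to 8.37 CPM, and Dcn did not pass at 11.4 and 21 CPM. Over the class of hyaluronan, proteoglycan and matrix glycoprotein genes, 13 of 32 tested rose and 9 fell.

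Adhesion molecules of epithelial type went both ways. Plet1 measured 946 CPM untreated, 46.2 CPM with YB328 and 5.22 CPM with P. vulgatus, so that it was 20.5-fold (95% interval 19.3 to 21.7) lower with YB328, and lower still with P. vulgatus. Cdh1, E-cadherin, measured 77 CPM untreated, 11.2 CPM with YB328 and 15 CPM with P. vulgatus, 6.88-fold (95% interval 6.06 to 7.83) lower. F11r, the junctional adhesion molecule JAM-A, rose 5.08-fold (95% interval 4.57 to 5.66), from 24.7 to 125 CPM. Pvr, the poliovirus receptor and a ligand of T and NK cell receptors, rose from 8.71 to 59.9 CPM, and Sema7a, a membrane-anchored semaphorin, from 6.39 to 107 CPM. Flrt3, an adhesion protein of the leucine-rich repeat kind, measured 63 CPM untreated, 357 CPM with YB328 and 293 CPM with P. vulgatus. Of 9 tested tight junction genes 5 rose and 1 fell.

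Annexins, which bind membranes in the presence of calcium, rose in 6 of 9 tested cases, with 1 lower. Anxa2 went from 618 to 1878 CPM, Anxa5 from 285 to 1021 CPM and Anxa6 from 64 to 173 CPM, rises of 2.71-fold to 3.58-fold. Anxa1 did not pass, at 458 and 563 CPM. Among galectins, lectins that bind galactosides, Lgals9 rose 10.4-fold (95% interval 9.6 to 11.3) while Lgals3, at 2806 and 4484 CPM, did not pass. The galectin-3 binding protein Lgals3bp measured 43 CPM untreated, 908 CPM with YB328 and 686 CPM with P. vulgatus, a rise of 21.1-fold (95% interval 19.6 to 22.9). The annexin rises were thus small beside those of Lgals9 and Lgals3bp.

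Receptor classes differed in direction. Of 36 tested orphan and adhesion G protein-coupled receptors 13 rose and 2 fell. Adgre1, the adhesion receptor F4/80, rose 9.35-fold (95% interval 8.65 to 10.1) from 42.6 CPM, and Gpr35 rose 12.1-fold (95% interval 9.06 to 16.5) from 3.1 CPM. S1pr3, a receptor of sphingosine 1-phosphate, went from 12.9 to 139 CPM. In the opposite direction Ffar2, a receptor of short-chain fatty acids, which gut bacteria make by fermentation, measured 29.2 CPM untreated, 0.404 CPM with YB328 and 0.909 CPM with P. vulgatus. It was 72.3-fold (95% interval 40 to 146) lower with YB328. Of 23 tested CD300 and paired immunoglobulin-like receptors 4 rose and 7 fell. The inhibitory receptor Cd200r1 measured 142 CPM untreated, 27.9 CPM with YB328 and 9.84 CPM with P. vulgatus, and the activating receptor Tarm1 measured 172 CPM untreated, 913 CPM with YB328 and 596 CPM with P. vulgatus.

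Growth factor genes of the vascular family were among the rises. Vegfa measured 26.5 CPM untreated, 189 CPM with YB328 and 363 CPM with P. vulgatus and Pgf, placental growth factor, measured 5.81 CPM untreated, 203 CPM with YB328 and 166 CPM with P. vulgatus, rises of 7.15-fold (95% interval 6.47 to 7.93) and 34.9-fold (95% interval 28.4 to 43.5). Their receptors went opposite ways. Kdr, the main signalling receptor of Vegfa, measured 0.194 CPM untreated, 105 CPM with YB328 and 65.5 CPM with P. vulgatus, with 3 counts untreated, a rise of 540.0-fold (95% interval 185 to 2619.8). Flt1 measured 22.6 CPM untreated, 6.09 CPM with YB328 and 2.27 CPM with P. vulgatus and was 3.71-fold (95% interval 3.07 to 4.49) lower with YB328, a call that was lost by TPM. Ligands and receptors of the receptor tyrosine kinase class rose in 9 of 21 tested cases and fell in 4. The rise in the sum of endothelial markers given above is mostly Kdr itself. Of the other markers Vwf rose from 2.19 to 16.8 CPM, Pecam1 did not pass at 6.07 and 7.56 CPM, Egfl7 and Cdh5 were under 1 CPM, and Tek had 0 counts in the untreated and YB328 libraries.

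**Figure D2:**
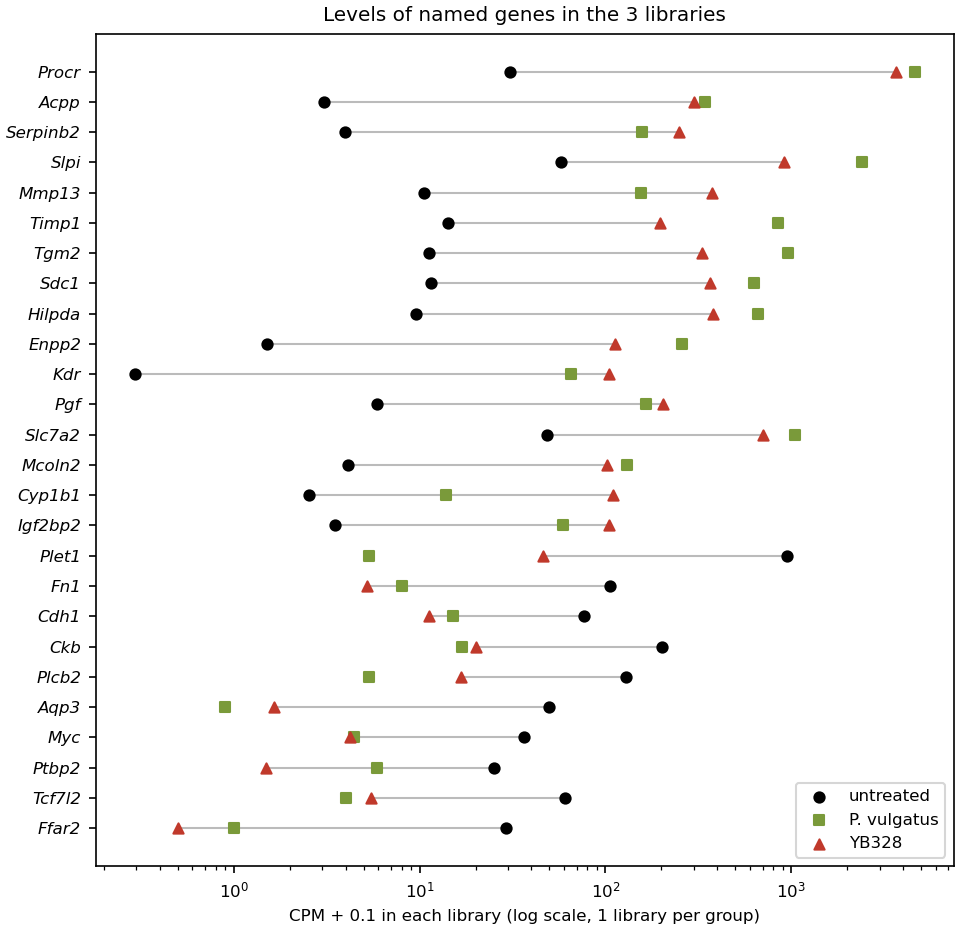
Levels of named genes in the 3 libraries, 1 row per gene, with CPM + 0.1 on a log axis and 1 point per library. Genes in the upper group, such as Procr, Serpinb2 and Sdc1, have both treated libraries to the right of the untreated library, and genes in the lower group, such as Fn1, Plet1 and Ffar2, have them to the left.

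Genes of the path from the endoplasmic reticulum to the cell surface rose more often than they fell. Of 85 tested genes of COPII coats, COPI coats and exit sites of the reticulum, 31 rose (18 to 44 over the scalings) and 2 fell, with a median of 0.68. The lowest count, under TMM from expressed genes, is 21.2% of the class beside 21.3% of all genes, so the higher share of rises depends on the scaling. Sec24d, a COPII cargo adaptor, measured 7.87 CPM untreated, 50.2 CPM with YB328 and 50.4 CPM with P. vulgatus, a rise of 6.38-fold (95% interval 5.29 to 7.74). Sec22b, a SNARE of this step that also serves cross-presentation in dendritic cells, rose 6.59-fold (95% interval 5.79 to 7.53), with both treated libraries at 105 CPM. Among SNAREs and vesicle fusion genes 22 of 62 rose (19 to 31) and 5 fell. Gosr2, a SNARE of the Golgi, rose 4.53-fold (95% interval 4.2 to 4.9), and Stx11, a syntaxin used in the release of cytotoxic granules, went from 57.2 to 302 CPM. Tmed2, a cargo receptor, did not pass at 187 and 256 CPM.

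Later sorting steps rose about as often as all genes and fell less often. In the class of ESCRT, retromer and sorting nexin genes, with the adaptors of clathrin traffic, 39 of 143 tested rose (29 to 67) and 10 fell, with a median of 0.58. The share that rose, 27.3%, is near the 24.7% of all genes, and under TMM from expressed genes it was 20.3% beside 21.3%. Gga2, an adaptor that sorts cargo from the Golgi to endosomes, measured 50.3 CPM untreated, 447 CPM with YB328 and 339 CPM with P. vulgatus, a rise of 8.87-fold (95% interval 8.25 to 9.55), and Necap1, an endocytic adaptor, rose 7.36-fold (95% interval 5.88 to 9.34). The giant bridge proteins Vps13c and Vps13b, which carry lipids between membranes, were 7.51-fold (95% interval 6.0 to 9.46) and 6.93-fold (95% interval 6.06 to 7.95) lower; reads of Vps13b may include some of the overlapping gene Cox6c.

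Enzymes that fold and glycosylate secreted proteins were called higher more often than lower. The translocon, N-glycosylation and folding class had 23 of 90 genes higher (19 to 39), a share near the background, and 6 lower. Ero1l, the oxidase that feeds disulphide formation, measured 49.5 CPM untreated, 364 CPM with YB328 and 952 CPM with P. vulgatus, a rise of 7.35-fold (95% interval 6.83 to 7.92), and Sec61a1, the channel of the translocon, rose 3.3-fold (95% interval 3.07 to 3.55). Among sialyl-, fucosyl- and other glycosyltransferases 23 of 60 rose (22 to 27) and 6 fell. Ggta1, which makes the alpha-galactose epitope found in mice, measured 52.8 CPM untreated, 329.7 CPM with YB328 and 341 CPM with P. vulgatus. Gcnt2, which branches lactosamine chains, rose from 14 to 101.3 CPM. The sialyltransferase St3gal4 was an exception, at 38.3 CPM untreated and 13.2 CPM with YB328.

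**Figure D3:**
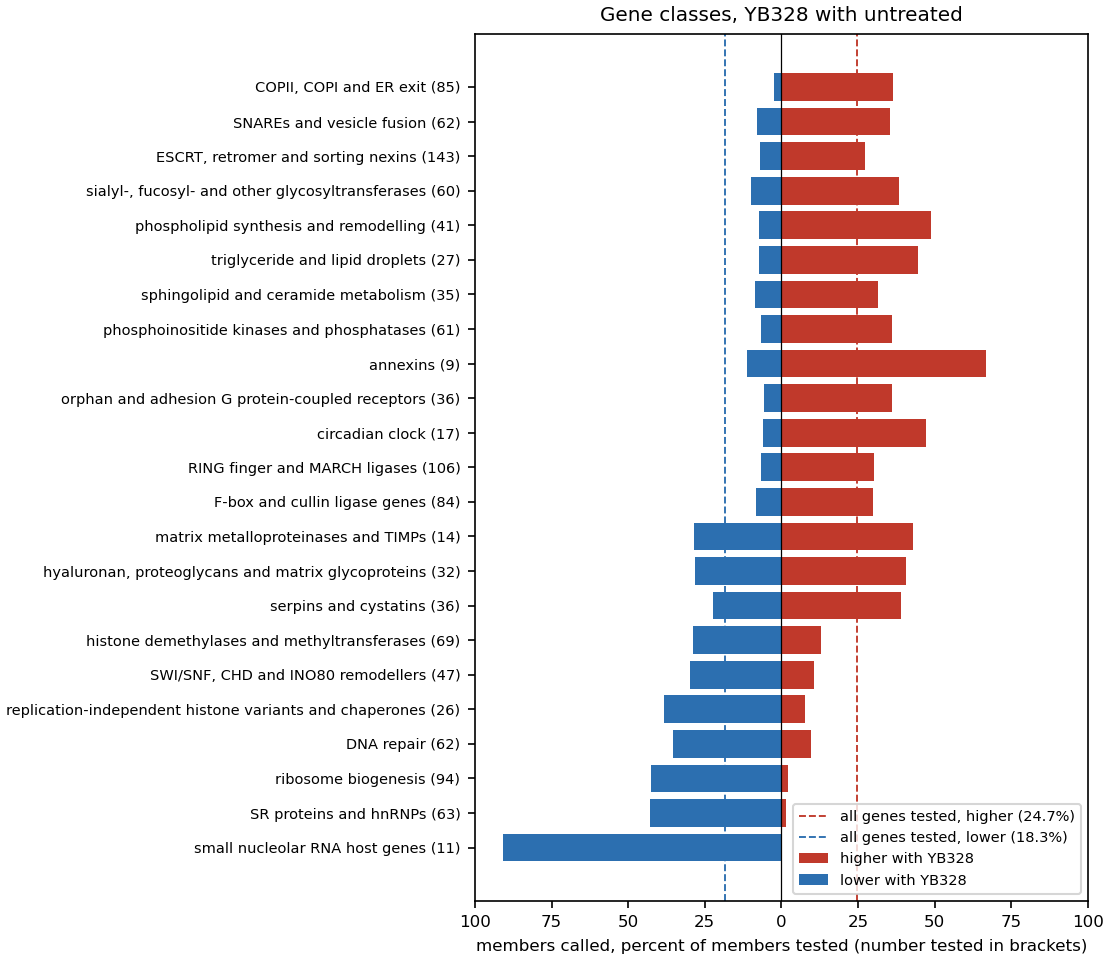
Share of tested genes that rose and that fell (percent, x axis) in gene classes described in the text (y axis), with dashed lines at the shares over all 10699 tested genes, 24.7% and 18.3%. On this scale lipid, COPII, SNARE and annexin classes have more rises than the dashed line, and the ESCRT class, at 27.3%, lies near it. The SR protein and hnRNP, ribosome biogenesis and DNA repair classes have few rises and more falls.

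Lipid enzymes rose in several classes. Of 41 tested genes of phospholipid synthesis and remodelling 20 rose (18 to 22) and 3 fell, with a median of 0.90. Agpat3, an acyltransferase that makes phosphatidic acid, measured 1.48 CPM untreated, 44.2 CPM with YB328 and 36.2 CPM with P. vulgatus, a rise of 29.8-fold (95% interval 19.8 to 47.2), and Plpp3, a phosphatase of lipid phosphates at the cell surface, measured 7.36 CPM untreated, 100.2 CPM with YB328 and 129 CPM with P. vulgatus. Lpcat4, which remodels lysophospholipids, fell 3.39-fold (95% interval 3.01 to 3.81). Genes of triglycerides and lipid droplets rose in 12 of 27 cases and fell in 2. Hilpda, a droplet protein that inhibits lipolysis and is known as a hypoxia-inducible gene, measured 9.42 CPM untreated, 377 CPM with YB328 and 661 CPM with P. vulgatus, a rise of 40-fold (95% interval 34 to 47.4). Fabp4, a fatty acid binding protein of fat cells and macrophages, went from 9.55 to 87.1 CPM, while the lipoprotein lipase Lpl did not pass at 957 and 621 CPM. In the sphingolipid class 11 of 35 rose and 3 fell. Smpd1, acid sphingomyelinase of lysosomes, rose 19.7-fold (95% interval 12.7 to 32.5), and Npc2, which hands cholesterol out of lysosomes, rose from 336 to 1976 CPM.

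Phosphoinositides are the lipid signals of the inner membrane, and 22 of 61 tested genes of their kinases and phosphatases rose (19 to 25) while 4 fell. The phosphatase Inpp5j measured 0.323 CPM untreated, 39.5 CPM with YB328 and 31.6 CPM with P. vulgatus, a rise of 122-fold (95% interval 52.3 to 378). Its relative Inpp5b measured 31.5 CPM untreated, 251 CPM with YB328 and 274 CPM with P. vulgatus. Pik3ap1, which links Toll-like receptors to PI3 kinase, rose 8.29-fold (95% interval 7.62 to 9.03). Plcb2, a phospholipase that cuts the same lipid downstream of G proteins, measured 128 CPM untreated, 16.7 CPM with YB328 and 5.22 CPM with P. vulgatus and was 7.71-fold (95% interval 6.96 to 8.55) lower. The kinase gene Pik3c2a fell too, from 20.3 to 6.74 CPM, and so did Pikfyve, a call lost by TPM. Among the genes named here, phosphatases rose while a phospholipase and kinases fell. These are the largest changes, and the other members were not sorted by type of enzyme. Of the 40 members with under 3000 coding bases, 18 rose and 1 fell.

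Other signalling genes rose singly. Prkar2b, a regulatory subunit of protein kinase A, measured 19.4 CPM untreated, 140.1 CPM with YB328 and 142 CPM with P. vulgatus, and Plk2, a polo-like kinase, measured 27.9 CPM untreated, 376 CPM with YB328 and 286 CPM with P. vulgatus. Scin, an actin-severing protein, went from 8.45 to 103 CPM. Enah, an actin filament elongation factor, was 7.56-fold (95% interval 6.49 to 8.83) lower. Mcoln2, a calcium channel of endosomes and lysosomes, measured 4.0 CPM untreated, 102 CPM with YB328 and 129.7 CPM with P. vulgatus, a rise of 25.5-fold (95% interval 19.9 to 33.4). Map4k1, a kinase that dampens signalling in immune cells, measured 52.2 CPM untreated, 10.6 CPM with YB328 and 8.52 CPM with P. vulgatus, and the potassium channel Kcna3 measured 39.2 CPM untreated, 11.7 CPM with YB328 and 10.7 CPM with P. vulgatus. Both of these were lower in each treated library.

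Ubiquitin ligase classes are read beside the 24.7% of all genes that rose and the 18.3% that fell. Of 106 RING finger and MARCH genes 32 rose (28 to 45) and 7 fell, shares of 30.2% and 6.6%. Of 84 F-box and cullin genes 25 rose (21 to 29) and 7 fell, shares of 29.8% and 8.3%. Of 28 HECT ligases 6 rose and 6 fell, 21.4% each, near the shares of all genes. HECT genes had a median of 3171 coding bases, against 1347 over all genes, and under 3000 bases 3 of 10 rose and 1 fell. Rnf135, a ligase that activates the RNA sensor RIG-I, measured 0.581 CPM untreated, 21.4 CPM with YB328 and 25.5 CPM with P. vulgatus, and Herc6, a ligase of interferon-induced conjugation, rose from 16.3 to 311 CPM. Btrc, the F-box protein that marks the inhibitor of NF-kB for destruction, rose 8.89-fold (95% interval 6.31 to 12.9). Mycbp2, a giant ligase counted in none of these classes, was picked after its values were seen. It measured 354 CPM untreated, 30.9 CPM with YB328 and 38.8 CPM with P. vulgatus, 11.5-fold (95% interval 10.7 to 12.3) lower with YB328.

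Carriers were mixed. In the class of organic ion and vitamin carriers 8 of 15 rose and 3 fell, with a median of 1.40. Slco4a1, which carries thyroid hormone and prostaglandins, measured 8.0 CPM untreated, 111 CPM with YB328 and 81.8 CPM with P. vulgatus, Slc22a4, an ergothioneine carrier, rose 19.3-fold (95% interval 13.2 to 29.4), and Slc23a2, which takes up vitamin C, rose 4.67-fold (95% interval 4.2 to 5.2). Slco5a1 went down, at 35.3 CPM untreated, 2.97 CPM with YB328 and 1.63 CPM with P. vulgatus. The median of the amino acid carriers moved with the scaling and the members tested. On the CPM scale 9 of 24 rose (9 to 10) and 4 fell, with a median of -0.11. By TPM the median was 1.71, over the 18 members tested on that scale. Slc7a2, which brings arginine into the cell, measured 48.7 CPM untreated, 702 CPM with YB328 and 1046 CPM with P. vulgatus, a rise of 14.4-fold (95% interval 13.4 to 15.5). Slc15a3, a lysosomal carrier of bacterial dipeptides, rose from 39.4 to 332 CPM. Slc1a5, which takes up glutamine, fell 3.44-fold (95% interval 3.15 to 3.75), and the water and glycerol channel Aqp3 measured 49.8 CPM untreated, 1.54 CPM with YB328 and 0.795 CPM with P. vulgatus, 32.3-fold (95% interval 23.7 to 45.2) lower.

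Metabolic enzymes outside glycolysis and itaconate followed no single direction. NAD metabolism had 9 of 21 genes higher and 4 lower: Nampt, the enzyme that recycles nicotinamide, rose 4.18-fold (95% interval 3.86 to 4.54), and Cd38, which consumes NAD, rose 4.25-fold (95% interval 3.7 to 4.91). Smox, spermine oxidase, rose from 63.5 to 440.3 CPM, whereas Srm, which makes spermidine, fell 3.01-fold (95% interval 2.58 to 3.51). Car13 and Car2, carbonic anhydrases, went from 8.45 to 284 CPM and from 95.3 to 355 CPM, both rises.

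A pair of enzymes of foreign compound metabolism stood higher with YB328 than with P. vulgatus. Cyp1b1, a P450 enzyme known as a target of the aryl hydrocarbon receptor, measured 2.45 CPM untreated, 109 CPM with YB328 and 13.7 CPM with P. vulgatus, a rise of 44.5-fold (95% interval 32.4 to 63) over untreated. Gsta2, a glutathione transferase, measured 0.194 CPM untreated, 48.5 CPM with YB328 and 11.2 CPM with P. vulgatus, with 3 counts untreated and a rise of 251-fold (95% interval 85.6 to 1217). Por, the electron donor of P450 enzymes, measured 31.3 CPM untreated, 209 CPM with YB328 and 214 CPM with P. vulgatus, so both treated libraries were at like levels. Ckb, brain creatine kinase, measured 201 CPM untreated, 20 CPM with YB328 and 16.9 CPM with P. vulgatus and was 10.1-fold (95% interval 9.19 to 11.1) lower.

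Transcription factor genes named by the rule were of several families. Of 17 clock genes 8 rose and 1 fell, with a median of 0.88. Bhlhe40, a repressor within the clock loop, measured 273 CPM untreated, 879 CPM with YB328 and 913 CPM with P. vulgatus, a rise. Nfil3, another repressor of the loop that some dendritic cells need for their development, measured 109 CPM untreated, 447 CPM with YB328 and 363 CPM with P. vulgatus. Ciart, another clock repressor, was the gene that fell, at 21.6 CPM untreated, 2.35 CPM with YB328 and 13.2 CPM with P. vulgatus. Its level with YB328 was lower than in either other library. In the MYC family Myc measured 36.3 CPM untreated, 4.11 CPM with YB328 and 4.32 CPM with P. vulgatus, 8.84-fold (95% interval 7.21 to 10.9) lower, with both treated libraries low. Mxd1, which competes with Myc for its partner Max, went the other way at 109 CPM untreated, 645 CPM with YB328 and 491 CPM with P. vulgatus, and Mxi1, of the same kind, measured 49.5 CPM untreated, 257 CPM with YB328 and 265 CPM with P. vulgatus. Cebpb, a bZIP factor of macrophages, rose 6.64-fold (95% interval 6.41 to 6.88), and Vdr, the vitamin D receptor, rose 6.62-fold (95% interval 6.02 to 7.3). Tcf7l2, the factor at the end of the Wnt pathway, measured 60.8 CPM untreated, 5.39 CPM with YB328 and 3.94 CPM with P. vulgatus, and Cbfa2t3, a co-repressor, measured 100.8 CPM untreated, 14.7 CPM with YB328 and 6.55 CPM with P. vulgatus. Of 231 tested zinc finger genes of the KRAB and other C2H2 kinds 52 rose and 43 fell, with a median of 0.11. Their shares of 22.5% and 18.6% were near the 24.7% and 18.3% of all genes.

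**Figure D4:**
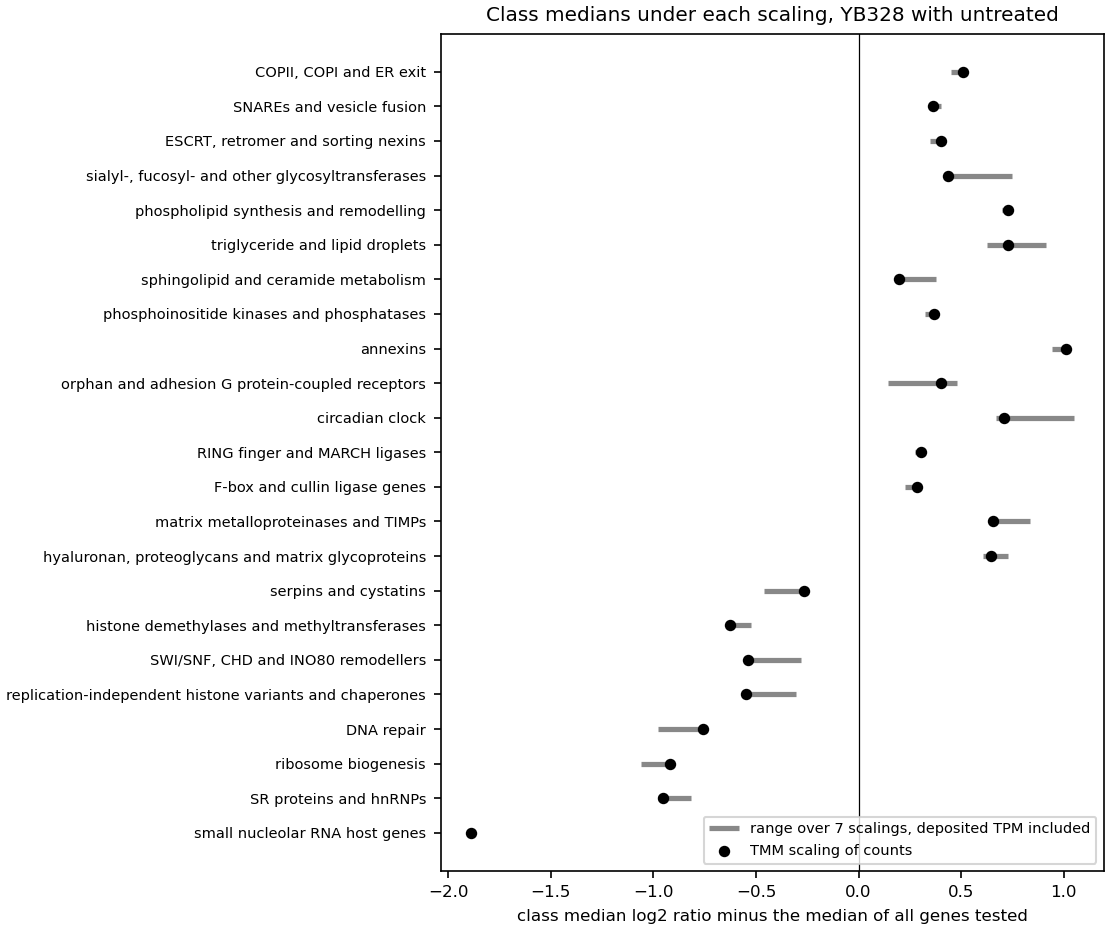
Median log2 ratio of each gene class in the plot of shares minus the median over all tested genes (x axis), with the point for TMM-scaled CPM and a bar from the lowest to the highest value over 7 scalings. Bars of classes such as phospholipid synthesis lie wholly right of 0 and bars of SR proteins and hnRNPs and ribosome biogenesis wholly left of it.

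Ribosome biogenesis genes fell far more often than they rose. General transcription genes were nearly balanced: of 79 tested genes of Mediator, RNA polymerase II and elongation 11 rose (13.9%) and 12 fell (15.2%). Both shares are below the 24.7% and 18.3% of all genes. Of 94 tested ribosome biogenesis genes 2 rose and 40 fell (24 to 42 over the scalings), with a median of -0.74. Ppan, needed for the large subunit, measured 38.6 CPM untreated, 6.31 CPM with YB328 and 6.55 CPM with P. vulgatus and was 6.11-fold (95% interval 5.15 to 7.29) lower. Npm1, nucleophosmin, the main protein of the nucleolus, went from 243 to 82.9 CPM. Dkc1, the pseudouridine synthase of small nucleolar particles, measured 27.2 CPM untreated, 2.24 CPM with YB328 and 3.45 CPM with P. vulgatus; part of Mpp1, which went from 28.2 to 72.5 CPM, overlaps it. Gnl3, a nucleolar GTPase that overlaps Pbrm1, measured 49.7 CPM untreated, 8.33 CPM with YB328 and 10.1 CPM with P. vulgatus. Rsl24d1, an assembly factor of the large subunit, measured 82.3 CPM untreated, 26.6 CPM with YB328 and 40.4 CPM with P. vulgatus, and Nvl, an ATPase of the same path, measured 63.4 CPM untreated, 15.5 CPM with YB328 and 21.7 CPM with P. vulgatus; both were picked after their values were seen. In each of these genes both treated libraries were below the untreated one.

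The ETS motif CCGGAAG, whose core GGAA is also that of PU.1 sites, is frequent close to the start of housekeeping genes, and the promoters of Rsl24d1 and Nvl are shown for it, again as the 250 bases before the RefSeq start on GRCm38.p6, 5′ to 3′ on the strand of the gene. Capitals mark the motif, which both hold in the reverse orientation.
Rsl24d1, chr9:73113219-73113468, plus strand: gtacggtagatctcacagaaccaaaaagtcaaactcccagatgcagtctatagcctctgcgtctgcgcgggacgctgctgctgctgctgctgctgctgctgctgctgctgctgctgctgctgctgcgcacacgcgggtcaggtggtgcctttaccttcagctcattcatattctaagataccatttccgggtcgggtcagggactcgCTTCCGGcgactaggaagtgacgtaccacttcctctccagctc
Nvl, chr1:181144205-181144454, minus strand: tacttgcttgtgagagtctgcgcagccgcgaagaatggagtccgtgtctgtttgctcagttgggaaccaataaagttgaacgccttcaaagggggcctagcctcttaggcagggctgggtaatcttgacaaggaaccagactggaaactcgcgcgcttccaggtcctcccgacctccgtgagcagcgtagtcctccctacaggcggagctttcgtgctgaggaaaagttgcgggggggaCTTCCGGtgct
Its first base lay 43 bases before the start in Rsl24d1 and 11 in Nvl. It stood in 24 of 80 promoters of the ribosome biogenesis class (30.0%), in 15.5% of promoters of all tested genes and in 6.91% of all RefSeq promoters. By direction it stood in 12.9% of promoters of genes that rose, 17.2% of those that did neither and 13.5% of those that fell, so genes that fell did not hold it more often than the tested genes as a whole.

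Of 63 SR protein and hnRNP genes 1 rose and 27 fell (17 to 30), with a median of -0.78. Ptbp2, a repressor of neuronal exons, measured 25.1 CPM untreated, 1.39 CPM with YB328 and 5.79 CPM with P. vulgatus, 18-fold (95% interval 12.9 to 25.8) lower, and Hnrnpa0, which binds AU-rich messages, was 3.62-fold (95% interval 3.15 to 4.17) lower. Hnrnpa2b1 did not pass at 471 and 358 CPM. The gene that rose was Pcbp1, a poly(C)-binding protein, at 142 and 289 CPM, and its call was lost under 3 other scalings. The spliceosome core, with 6 of 78 genes higher and 14 lower, had a share of falls near the background. By TPM the median of the SR protein and hnRNP class was -0.20, still below the TPM median of all genes.

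Host genes of small nucleolar RNAs, which carry them in their introns, fell in 10 of 11 tested cases, with none higher and a median of -1.71. Snhg1 measured 24.8 CPM untreated, 3.74 CPM with YB328 and 3.37 CPM with P. vulgatus and Snhg20 measured 36.2 CPM untreated, 4.66 CPM with YB328 and 8.19 CPM with P. vulgatus, falls of 6.62-fold (95% interval 5.31 to 8.32) and 7.77-fold (95% interval 6.4 to 9.5). Gas5, whose message is decayed when it is translated, measured 91.9 CPM untreated, 31.4 CPM with YB328 and 31.1 CPM with P. vulgatus, a call that was lost by TPM.

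DNA repair genes and some classes of chromatin genes fell more often than they rose. Of 62 DNA repair genes 6 rose and 22 fell (11 to 27). Topbp1, which activates the ATR checkpoint, measured 55.6 CPM untreated, 13.9 CPM with YB328 and 12.8 CPM with P. vulgatus, and Ercc1, a subunit of a nuclease of nucleotide excision repair, rose 3.58-fold (95% interval 2.91 to 4.44), with the overlapping gene Cd3eap at 9.39 and 8.27 CPM. Of 69 histone demethylase and methyltransferase genes 9 rose and 20 fell, and of 47 remodeller genes of the SWI/SNF, CHD and INO80 kinds 5 rose and 14 fell. By TPM these were 12 and 9, and 7 and 7, with medians of 0.09 and 0.33, above 0 but below 0.61. Histone deacetylases, acetyltransferases and bromodomain genes, a class of 81 tested, had 14 rises and 13 falls. Kdm4a, a histone demethylase, was an exception at 33.2 CPM untreated, 179 CPM with YB328 and 193 CPM with P. vulgatus. Jmjd1c, of the same superfamily, fell 4.01-fold (95% interval 3.62 to 4.44), and it overlaps Reep3 on the opposite strand. Hells, a remodeller needed for DNA methylation, fell 8.46-fold (95% interval 6.5 to 11.2). Histone variants and chaperones fell in 10 of 26 cases and rose in 2, and by TPM in 3 and 3. Anp32b, a histone chaperone, measured 320.4 CPM untreated, 96.2 CPM with YB328 and 115 CPM with P. vulgatus and was 3.33-fold (95% interval 3.17 to 3.49) lower with YB328, whereas H3f3b, a variant histone H3 gene, did not pass at 827 and 1149 CPM.

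Several of these classes hold long genes, and genes of 3000 coding bases or more fell more often than shorter ones. Coding length could be taken from GENCODE M21 for 9815 of 10108 tested nuclear protein-coding genes (97.1%). The share that fell was 18.6% under 500 coding bases, 12.2% to 16.7% in the bins from 500 to 3000 bases, 22.9% and 36.9% in the next bins, and 51.4% for the 37 genes of 10000 bases or more, of which 19 fell and 4 rose. Kmt2c, a giant histone methyltransferase, went from 108 to 28.9 CPM, and Ahnak, a giant scaffold protein, from 377 to 175 CPM. Rises among giants included Lrp1, an endocytic receptor, from 98.5 to 294 CPM, and Rnf213, a ligase of defence against microbes, from 34.3 to 125 CPM. Among genes with under 3000 coding bases, 26.6% rose and 14.7% fell over all 8544.

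Within that limit the classes separated. The RNA classes kept their balance, with 1 of 61 SR protein and hnRNP genes higher and 25 lower, and 2 of 83 ribosome biogenesis genes higher and 32 lower. DNA repair had 5 of 43 higher and 14 lower. Histone demethylases and methyltransferases, whose median coding length was 3116 bases against 1347 over all genes, had 7 of 33 higher and 7 lower, and the remodellers 4 of 20 higher and 4 lower. Rises and falls were thus equal in number among the shorter members of both classes, at 21.2% and 20% each. Over all genes of that length 14.7% fell, and with only 33 and 20 members the difference rests on few genes.

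**Figure D5:**
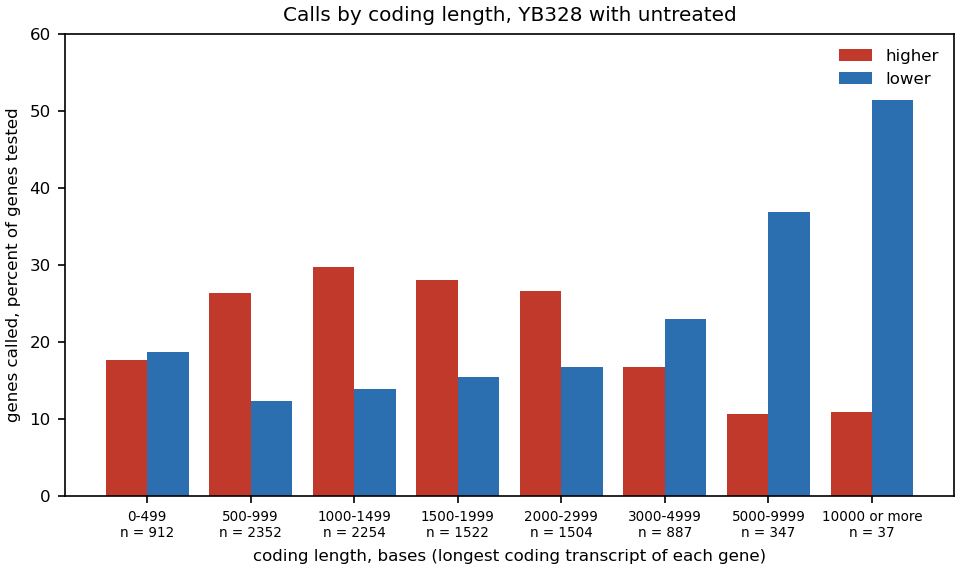
Share of nuclear protein-coding genes that rose and that fell (percent, y axis) by bins of longest coding sequence in bases (x axis), with the number of genes in each bin. The share that fell is 18.6% in the first bin, lowest at 12.2% for 500 to 1000 bases, and 51.4% in the last bin, from 10000 bases.

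Noncoding genes fell more often than they rose. Of 54 tested lincRNA genes 8 rose and 32 fell, of 71 antisense genes 15 rose and 34 fell, and of 78 genes of the annotation type TEC, which marks models that still await experimental proof, 2 rose and 70 fell, with a median log2 ratio of -2.90. The untreated library also held larger shares of ribosomal and mitochondrial RNA, and with 1 library a group a difference between libraries and an effect of YB328 cannot be told apart. Kcnq1ot1, an unspliced antisense RNA of an imprinted domain, measured 79.7 CPM untreated, 3.63 CPM with YB328 and 4.47 CPM with P. vulgatus, a call lost by TPM. Mirt2, a long noncoding RNA known to be induced by lipopolysaccharide, rose from 5.94 to 20.1 CPM. The libraries do not mark strand, so reads of an antisense gene and its partner cannot be told apart.

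Of 6 tested host genes of microRNAs 1 rose and 3 fell. The mature sequences are shown for a host that did not pass and for one that fell, with the seed (bases 2 to 8) in capitals, from RefSeq on GRCm38.p6 and on the plus strand. The mature RNAs were not measured here.
mmu-miR-155-5p, chr16:84714143-84714165: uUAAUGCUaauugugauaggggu
mmu-miR-9-5p, chr7:79505279-79505301: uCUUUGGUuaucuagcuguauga
Mir155hg, host of the first, a microRNA of activated dendritic cells, did not pass, at 23.2 CPM untreated, 34.2 CPM with YB328 and 32.4 CPM with P. vulgatus. Mir9-3hg, host of the second, measured 14.5 CPM untreated, 0.404 CPM with YB328 and 0.0757 CPM with P. vulgatus, which is 35.8-fold (95% interval 19.6 to 72.8) lower with YB328 on 224 and 11 counts. The seeds differ, and the hosts differ in that the first is near one level in all 3 libraries and the second is near 0 in both treated ones.

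Neighbouring genes rose together in places. Over expressed protein-coding genes in chromosome order, 52 runs of at least 4 neighbours rose and 12 fell, the longest rising run holding 11 genes and the longest falling run 13 genes of the mitochondrial genome. Procr closed a run of 5 on chromosome 2, from 155517948 to 155755471 on GRCm38, after Acss2, Gss, Trpc4ap and Edem2. Edem2, which marks misfolded glycoproteins for disposal, measured 45.8 CPM untreated, 233.6 CPM with YB328 and 154 CPM with P. vulgatus, Gss, glutathione synthetase, measured 14.3 CPM untreated, 54.7 CPM with YB328 and 41.4 CPM with P. vulgatus, and Trpc4ap went from 110.3 to 271 CPM. The neighbours rose far less than Procr. Genes of a run can share reads where they overlap, and no comparison with shuffled order was made.

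Some genes were seen on one side only. Dok7, an adaptor of muscle synapses, had 0 counts untreated and measured 34.1 CPM with YB328, which is at least 176-fold higher when the untreated library is set to 3 counts, the floor used per library. Ttc9, Mfap3l, Gdpd1 and Kif3c likewise had 0 counts untreated, and were at least 168-fold, at least 149.7-fold, at least 113-fold and at least 113-fold higher. With P. vulgatus Dok7 stood at 6.78 CPM and Kif3c, a kinesin motor, at 29.1 CPM. Tmem178, at 16.2 CPM with YB328 and 0 untreated, was at least 83.8-fold higher and measured 0.682 CPM with P. vulgatus. Shroom4, an actin-binding protein, had 10.6 CPM untreated and 0 counts in both treated libraries, at least 96.1-fold lower with YB328. The calls of Tmem178 and Shroom4 were lost at a minimum of 20 CPM, and that of Shroom4 also by TPM. The untreated library was the shallowest of the 3, and a count of 0 there limits a gene to 0.194 CPM.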

How the data were processed

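RNA was extracted with the RNeasy Micro kit and copied with SMART-Seq v4, and Nextera XT libraries, which do not mark the strand, were sequenced, per the labels' protocols. DRAGEN and the genome GRCm38 are named in the submitters' processing notes; the counting tool is not given in the sources used here. Per the file headers, the deposited table gives an estimated count (expected count) and a TPM value for each gene and library. The deposited counts are not scaled between libraries, and the TPM values deposited by the authors are per gene length.

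Counts were scaled by TMM in edgeR 4.0.16 (R 4.3.3), which gave size factors and no test, and rounded for the exact 95% Clopper-Pearson intervals of each ratio, conditional on the sum of both libraries. Median-of-ratios factors came from DESeq2 1.42.0, and the rest was computed in Python 3.11.15 with scipy 1.17.1. No test across libraries could be made with 1 library a group. The method was tested on simulated counts.

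The comparison and the gene classes were chosen with earlier results of these data known, and several symbol patterns were narrowed after they caught unrelated genes. The rule for named genes took, at 20 CPM or more in a library, up to 3 rises and 3 falls per class, the 15 largest rises and falls outside the usual lists and 8 noncoding genes each way; it also took the most abundant member of a class that did not pass, 10 abundant genes per library, the 10 genes with most counts against 0 each way, and the 5 longest runs. Emp1, Rsl24d1, Nvl, Sdc3, Gpc1, Srgn, Mycbp2, Mir9-3hg, the run around Procr and the giant genes fall outside that rule and were chosen after their values were seen. Coding length came from GENCODE M21 and promoters from RefSeq on GRCm38.p6, which matched 8174 of 10108 tested nuclear protein-coding genes (80.9%). Splicing and genetic variants were not analysed here. The results of some genes are not reported here.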

Additional observations from a re-analysis of the deposited data

How the results depend on the processing

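Besides TMM on 3 libraries, 11 planned settings and 1 chosen after seeing the data (TMM from genes with at least 5 CPM) were tried. The count of 1955 genes that fell moved to 1096 with the deposited TPM, to 3570 with no minimum level and to 977 at a minimum of 20 CPM; the cause was not tested. Rises numbered 1904 to 3672 over the settings, fewest at a minimum of 20 CPM and most with no minimum level. Scaling on expressed genes gave 2285 rises and 2292 falls. Of 622 genes that the naming rule called, 504 kept their call in every setting where they were tested, 118 lost it in at least 1 (94 with the deposited TPM) and 15 in 3 or more, and 0 changed direction. The untreated library was the shallowest, and its floor of 0.194 CPM limits what folds from 0 can show. No paired analysis was possible because each group has 1 library.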

Other observations

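Processed pseudogenes as a whole went both ways, with 59 of 213 tested higher and 65 lower. Of 39 tested ribosomal protein pseudogenes 1 was higher and 24 were lower with YB328, and 4 of 4 tested pseudogenes of glycolysis genes were higher. Reads of a pseudogene and its parent can be split either way by the counting, so neither value is sure for a single copy.

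The table holds Nnt, the transhydrogenase of the inner mitochondrial membrane, under 2 overlapping entries. One measured 10.2 CPM untreated and 0 CPM in both treated libraries, and the other 0.265 CPM untreated, 13.3 CPM with YB328 and 8.41 CPM with P. vulgatus. Their sums were 10.5, 13.3 and 8.41 CPM in that order. The entries overlap, so reads may be divided between them differently in each library.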
